A study of Rattus norvegicus with 6 samples.

Results

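The nuclear genes of oxidative phosphorylation were compared between rat endometrial epithelial organoids (rEEOs) and rat bone marrow mesenchymal stem cells (rBMSCs). They were chosen by symbol alone: subunits of respiratory complexes I to V and their paralogs, assembly factors, cytochrome c, and the regulators Tfam, Nrf1 and Tfb1m. Of the 13728 genes in the table, 79 matched, and the 76 with a sum of at least 10 counts over the 6 libraries were analysed. The other 3 were near 0: Cox4i2 had 3 counts in 1 rEEOs library and none elsewhere, Sdhaf3 had 1 count in 1 rEEOs library, and Cox7a1 had at most 3 counts in any library. Sdhb, Sdhd, Tfb2m, Polrmt and the catalytic ATP synthase subunits were not analysed here, and the table used here held 0 mitochondrially encoded genes.

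Each cell type was represented by 3 bulk RNA-seq libraries. The rEEOs were grown from glandular fragments of the uteri of young female SD rats, in Matrigel droplets under an organoid medium (ExM). The rBMSCs were purchased cells carrying red fluorescent protein (RFP), grown in dishes. Cell type, medium and culture format changed together and cannot be told apart, and no source states that the 3 samples of a group came from separate animals or cultures, so p-values measure the spread between these samples, which may be technical. In bulk RNA, fewer cells of a type and less RNA per cell cannot be told apart either. Libraries held 14892115 to 15421501 counts in rBMSCs and 10457958 to 13883993 in rEEOs. All 8 epithelial markers passed the test as higher in rEEOs, with summed levels of 4612 to 5217 TPM (transcripts scaled to a fixed library total, corrected for length) against 2.82 to 3.52 TPM in rBMSCs, and 6 of 7 mesenchymal markers passed as lower, with 172 to 298 against 35554 to 37915 TPM. Of the haematopoietic markers, Cd68 reached 31.8 to 133 TPM in rEEOs, whereas Csf1r and Laptm5 did not exceed 0.25 TPM in any library, and Adgre1 was at 0.48, 0 and 0.11 TPM in rEEOs and at 0 in rBMSCs. The muscle markers Acta2 and Des summed to 5660 to 6407 TPM in rBMSCs and to at most 1.08 TPM in rEEOs. Of the proliferation markers only Mki67 was held. It stood at 67.1, 56.7 and 73.0 TPM in rBMSCs and at 30.9, 0.88 and 2.38 TPM in rEEOs. The part of these marker differences in the results was not tested.

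Oxidative phosphorylation uses electrons from NADH and succinate to make ATP at the inner mitochondrial membrane. Complexes I and II pass electrons to coenzyme Q, complex III passes them on to cytochrome c, complex IV hands them to oxygen, and complex V (ATP synthase) uses the resulting proton gradient to make ATP. Most subunits are encoded in the nucleus by short transcripts, and nuclear factors such as Nrf1 and the ETS factor GABP are known for binding many of their promoters, while Tfam and Tfb1m act on mitochondrial DNA and ribosomal RNA.

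The promoters of 5 genes on which the results turn are shown, as RefSeq gives them for the GRCr8 assembly. Each run covers the 100 bases before the annotated start of transcription, written 5′ to 3′ along the gene. Capitals mark whole matches to any of 4 motifs looked for on both strands: CGCNTGCG (the core of the NRF1 motif), CCGGAAG (ETS, the core bound by GABP), AAGATGGC (YY1) and TCAAGGTCA (ERR). Cox8a, a small subunit of complex IV, lies on the minus strand at chr1:213833624-213833723. Cox17, the copper chaperone of complex IV, lies on the minus strand at chr11:75912020-75912119. Ndufa4l2, the paralog of the complex IV subunit Ndufa4, lies on the plus strand at chr7:65242069-65242168. Tfam is on the plus strand at chr20:17355273-17355372, and Nrf1 is on the plus strand at chr4:59632326-59632425.
Cox8a: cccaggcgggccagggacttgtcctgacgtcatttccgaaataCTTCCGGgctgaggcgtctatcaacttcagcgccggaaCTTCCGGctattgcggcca
Cox17: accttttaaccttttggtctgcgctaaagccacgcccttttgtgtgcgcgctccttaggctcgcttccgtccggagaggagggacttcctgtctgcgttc
Ndufa4l2: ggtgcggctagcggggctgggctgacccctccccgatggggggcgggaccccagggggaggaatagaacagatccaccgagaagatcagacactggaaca
Tfam: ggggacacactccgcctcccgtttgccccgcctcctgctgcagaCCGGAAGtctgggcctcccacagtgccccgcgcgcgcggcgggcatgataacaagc
Nrf1: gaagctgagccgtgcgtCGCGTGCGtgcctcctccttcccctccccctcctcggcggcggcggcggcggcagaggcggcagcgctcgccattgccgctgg
The Cox8a window held the ETS letters at both marked places and the Tfam window once, the Nrf1 window held the NRF1 letters, and the Cox17 and Ndufa4l2 windows held no whole match. A YY1 match crosses the start of Cox8a and of Ndufa4l2 and therefore runs past the bases shown.

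Rises outnumbered falls among the 76 genes. With an adjusted p under 0.05 (edgeR's quasi-likelihood test over 10607 genes, Benjamini-Hochberg adjustment), 45 of the 76 rose in rEEOs compared to rBMSCs and 2 fell, whereas 29 did not pass. The background was 33.3% of all genes tested called higher and 30.2% called lower. The median log2 fold change was 0.74 for the 76 genes and 0.08 for all genes tested. All 3 rEEOs libraries lay above all 3 rBMSCs libraries in CPM (counts scaled to library size by the TMM method of edgeR) for 50 of the 76, beside 36.9% of all genes tested, and below them for 4, beside 35.9%. The threshold of the study also asks for a log2 fold change beyond 2 in size, and there Cox17 and Ndufa4l2 passed as higher and none as lower, where the background was 16.3% higher and 13.3% lower. Of the 47 calls, 20 were larger than 1 on the log2 scale, and all 20 were higher in rEEOs. Of the same 47, 12 missed the threshold when at least 1 of the 6 libraries was left out.

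Transcript length moved with the difference between the cell types. Effective lengths, taken relative to the median gene, had a median of 0.19 over the 76 genes, and 39 of them were shorter than 0.2. Over all genes tested, the median log2 fold change ran from 0.75 at relative lengths up to 0.1 to −0.45 above 1.6. In the same classes of length the oxidative phosphorylation genes had medians of 1.00 (n = 19, up to 0.1), 0.85 (n = 20, to 0.2), 0.73 (n = 15, to 0.4), 0.54 (n = 15, to 0.8) and 0.48 (n = 6, to 1.6), beside 0.75, 0.72, 0.51, 0.28 and 0.00 for all genes. The class above 1.6 held 1 of them, Cox10, at −0.69 beside −0.45. The geometric mean of relative length, weighted by counts, was 1.21 to 1.28 in rBMSCs and 0.947, 0.729 and 0.743 in rEEOs replicates 1, 2 and 3. That mean also depends on which genes are most abundant. The 10 most abundant genes held 21.0% to 21.7% of counts in rBMSCs libraries and 6.72% to 9.70% in rEEOs. In rBMSCs the long collagen gene Col1a1 (relative length 2.57) was highly abundant. The part of the length trend that separates the groups cannot be told apart from cell type. Within rEEOs the trend also varied, with log2 medians over the 76 genes of −0.11, 0.49 and 0.46 in replicates 1, 2 and 3. With the trend removed from each library, 31 of the 76 were called higher (background 34.5%) and 10 lower (background 31.1%), and the medians were 0.27 for the 76 and 0.05 for all genes. Of the 45 higher genes, 31 kept the call and 14 lost it, both lower genes remained lower, and 8 of the 29 not called became lower. Counts for the complexes and lists are therefore given both ways below. The shares over all genes to set beside them are 33.3% higher and 30.2% lower, or 34.5% and 31.1% with the trend removed.

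**Figure D1:**
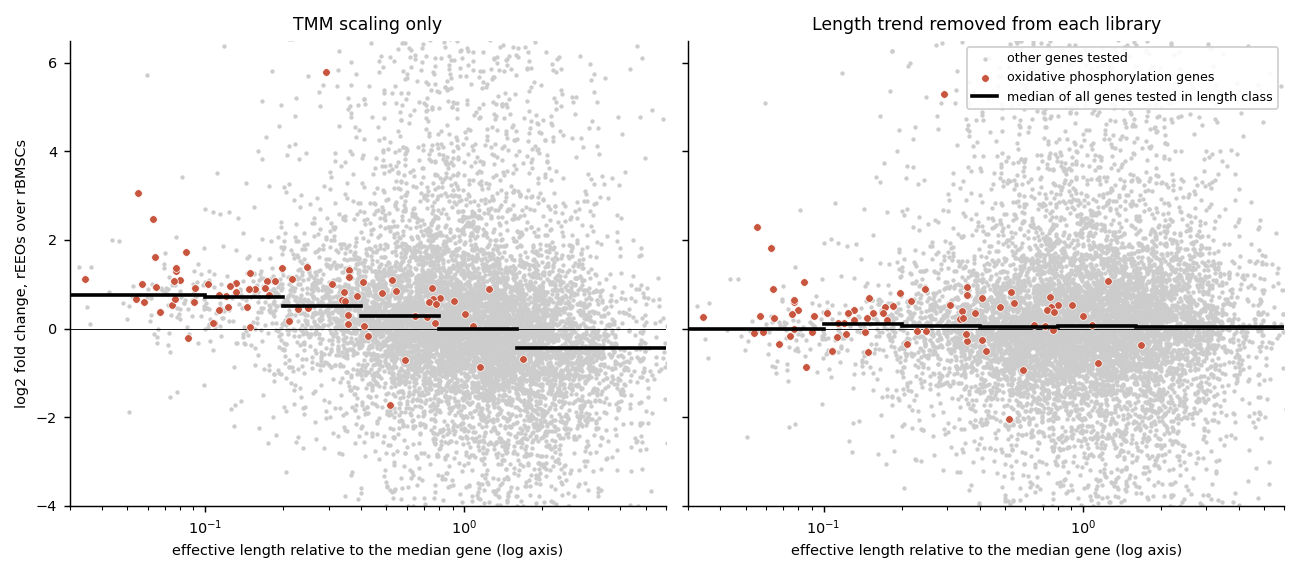
Log2 fold change of rEEOs over rBMSCs (y axis; points beyond the axis limits not shown) against effective transcript length relative to the median gene (log x axis), with TMM scaling only (left) and with the length trend of each library removed (right). Grey points are the other genes tested, red points the 76 oxidative phosphorylation genes and black lines the median of all genes tested in each length class. On the left the lines step down from 0.75 to −0.45 and most red points lie at short lengths, and on the right the lines lie close to 0.

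Replicate 1 of rEEOs stood apart from replicates 2 and 3. For the 39 genes of relative length under 0.2, its level was lower than the mean of the other two in each case, with a median log2 difference of −0.59, beside −0.70 for all genes of that length. For the 22 genes of length 0.4 or more it was higher for 12, with a median of 0.03. Without that library, 58 of the 76 were called higher and 3 lower, and, with the length trend removed as well, 37 higher and 13 lower. The rEEOs libraries scattered more than the rBMSCs libraries, with a median SD of log2(CPM + 1) of 0.317 against 0.113 for the 76 genes. Over all genes tested it was 0.340 against 0.0877. Without replicate 1 the rEEOs value, from replicates 2 and 3 only, was 0.112 for the 76 genes and 0.164 for all genes tested.

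Complex I, the NADH dehydrogenase, was represented by 27 subunits, of which 15 rose and none fell, with a median log2 fold change of 0.60. Ndufs7, a core subunit that carries an iron-sulfur cluster, had the largest rise in the complex. It was measured at 36.9, 38.4 and 34.3 CPM in rBMSCs and at 59.4, 127 and 97.8 CPM in rEEOs, where replicate 1 was the lowest and the groups did not overlap. Its log2 fold change was 1.37 ± 0.28 (SE, adjusted p = 0.0052 by edgeR) and 0.80 with the length trend removed (adjusted p = 0.0038). Ndufab1, the mitochondrial acyl carrier protein, also rose (1.25 ± 0.17, adjusted p = 0.00084). Ndufa9, an accessory subunit of the arm in the matrix, had 115, 130.2 and 125 CPM in rBMSCs against 106, 98.4 and 122 CPM in rEEOs. These ranges overlapped, and its log2 fold change of −0.18 ± 0.13 did not pass (adjusted p = 0.28). It was −0.51 with the length trend removed (adjusted p = 0.018), and 0.20 with library size as the only scaling.

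The 5 core subunits of complex I did not move as one. Ndufs7 and Ndufs3 (0.82, adjusted p = 0.010) rose, while Ndufv2 (0.46, adjusted p = 0.12), Ndufs1 (0.32, adjusted p = 0.24) and Ndufs8 (0.16, adjusted p = 0.33) did not pass. Among the 22 accessory subunits 13 rose, and the median log2 fold change was 0.61. Once the trend was removed, 10 of the 27 subunits were higher and 6 were lower, beside 34.5% and 31.1% of all genes tested. The lower ones were Ndufa9, Ndufb9, Ndufa12, Ndufs8, Ndufb2 and Ndufa10l1, and the median of the 27 fell to 0.12. Ndufa10 and its near-identical copy Ndufa10l1 share reads that RSEM divides between them, so their separate values (0.60 and −1.72) are uncertain. Added together, the pair had 102.7 ± 2.0 CPM in rBMSCs and 141.9 ± 6.5 CPM in rEEOs (mean ± SD, n = 3), a log2 ratio of 0.47.

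Both subunits of complex II that were held, which link the citric acid cycle to the respiratory chain, rose in rEEOs. Sdha, the flavoprotein, was measured at 186, 184 and 183 CPM in rBMSCs and at 305, 285 and 267 CPM in rEEOs. Here replicate 1 was the highest of the rEEOs, and the groups did not overlap. Its log2 fold change was 0.63 ± 0.12 (edgeR, adjusted p = 0.0042) and 0.52 with the length trend removed (adjusted p = 0.0043), but in limma on log2(TPM + 1) it was 0.37 with an adjusted p of 0.14. Sdhc, a membrane anchor, gave 0.73 ± 0.13 (edgeR, adjusted p = 0.0030), and 0.36 with the length trend removed (adjusted p = 0.011).

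Of 6 complex III subunits 4 rose, with a median log2 fold change of 0.78. Uqcrfs1, the Rieske iron-sulfur protein, lay at 99.9, 109.7 and 96.0 CPM in rBMSCs and at 185, 247 and 255 CPM in rEEOs. All rEEOs libraries were above all rBMSCs libraries, by a log2 fold change of 1.17 ± 0.17 (edgeR, adjusted p = 0.0012), or 0.77 with the length trend removed (adjusted p = 0.00044). Cyc1, the cytochrome c1 heme protein, gave 1.05 ± 0.14 (edgeR, adjusted p = 0.00099), and 0.69 with the length trend removed (adjusted p = 0.0012). Uqcrq, a small subunit near the coenzyme Q site, had 61.2, 78.8 and 69.0 CPM in rBMSCs against 76.6, 111 and 114 CPM in rEEOs. Its rEEOs replicate 1 fell within the rBMSCs range, and the log2 fold change of 0.53 ± 0.20 did not pass (edgeR, adjusted p = 0.052). Without that library it was 0.71 (adjusted p = 0.0018), and with the length trend removed −0.16 (adjusted p = 0.24). Uqcrfs1 and Cyc1 alone were called in this complex once the trend was removed, beside 34.5% of all genes called higher.

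Cycs, cytochrome c itself, which carries electrons from complex III to complex IV, was measured at 111, 112 and 119 CPM in rBMSCs and at 139, 84.4 and 132 CPM in rEEOs. The rEEOs libraries lay on both sides of the rBMSCs, and the log2 fold change was 0.05 ± 0.21 (edgeR, adjusted p = 0.83). That SE leaves room for a change in either direction, and the sign changed between scalings (0.44 with library size only, −0.24 in limma on log2(TPM + 1)). Its counts were not all whole, which marks reads shared with other genes.

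In complex IV, cytochrome c oxidase, 9 of 10 subunits rose and Cox6a1 did not pass. The median log2 fold change was 1.11, or 0.51 with the length trend removed, the largest of complexes I to V in both. Cox8a, whose promoter is shown above, stood at 82.2, 89.2 and 83.3 CPM in rBMSCs and at 218, 289 and 340.4 CPM in rEEOs. The lowest rEEOs library exceeded the highest rBMSCs library, and the log2 fold change was 1.73 ± 0.19 (edgeR, adjusted p = 0.00038), or 1.06 with the length trend removed (adjusted p = 0.00064). Cox7b, another small membrane subunit, gave 35.9, 46.0 and 41.0 CPM against 89.3, 140.1 and 147 CPM. This was a log2 fold change of 1.62 ± 0.23 (edgeR, adjusted p = 0.0011), or 0.89 with the length trend removed (adjusted p = 0.00045). Cox7c, Cox7a2, Ndufa4, Cox5b, Cox5a and Cox6c rose by log2 fold changes of 0.93 to 1.37, and all of these but Cox6c kept the call with the length trend removed, at 0.41 to 0.65.

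The 2 most abundant complex IV genes of rBMSCs per unit length behaved differently. Cox4i1, the main isoform of the regulatory subunit IV, had 269, 298 and 268 CPM in rBMSCs and 341, 518 and 560 CPM in rEEOs. Its log2 fold change was 0.76 ± 0.21 (edgeR, adjusted p = 0.019), with replicate 1 the lowest of the rEEOs but above all rBMSCs. The call was lost with the length trend removed (0.20, adjusted p = 0.11), and also without rBMSCs replicate 1, 2 or 3 or rEEOs replicate 3, where adjusted p lay between 0.052 and 0.074. Cox6a1, the non-muscle isoform of subunit VIa, had 201, 255 and 214 CPM in rBMSCs and 198, 271 and 257 CPM in rEEOs. These ranges overlapped and the log2 fold change of 0.11 ± 0.18 did not pass (edgeR, adjusted p = 0.59). In TPM, by contrast, its rEEOs libraries all lay below the rBMSCs, and with the length trend removed it was −0.51 (adjusted p = 0.011). Of the tissue-specific alternatives to these subunits, Cox4i2 and Cox7a1 were the ones held, and both were under the count minimum.

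Ndufa4l2, a paralog of Ndufa4 known as a target of hypoxia-inducible factors, showed the largest log2 fold change of the 76 genes, 5.79 ± 1.16 (edgeR, adjusted p = 0.0050). It had 1, 7 and 3 counts in the rBMSCs libraries and 111, 47 and 440 counts in the rEEOs libraries. The rEEOs libraries therefore differed widely among themselves, with replicate 3 the highest and replicate 2 the lowest, yet all lay above the rBMSCs. Pooled over libraries, 598 counts against 11 gave a CPM ratio of 54.2, with a 95% interval of 30.1 to 109 that covers counting error only. Leaving out any library kept the log2 fold change between 4.26 and 6.61. Ndufa4 itself was measured at 61.2, 67.7 and 60.2 CPM in rBMSCs and at 117, 140.7 and 156 CPM in rEEOs (1.13 ± 0.15, edgeR, adjusted p = 0.00086). In TPM, Ndufa4l2 amounted to 0.0838%, 0.563% and 0.291% of Ndufa4 in rBMSCs and to 4.25%, 2.18% and 17.4% in rEEOs, so it was the minor transcript of the pair in every library. Cox7a2l, a supercomplex factor related to Cox7a2, did not pass (0.31 ± 0.26, edgeR, adjusted p = 0.33), but without rEEOs replicate 1 it was 0.57 (adjusted p = 0.0029). Relative to Cox7a2 in TPM it stood at 57.8% to 60.3% in rBMSCs and at 26.9% to 38.8% in rEEOs. The third paralog, Cox7a2l2, had at most 26.3 counts in a library and counts that were not whole, and it did not pass (adjusted p = 0.092).

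The 7 subunits of complex V that were held all rose, with log2 fold changes of 0.66 to 1.33 and a median of 0.95, although Atp5l turned to −0.01 with the length trend removed. These are peripheral stalk, membrane and small rotor subunits, named here as in the table (Atp5d is now Atp5f1d, and Atp5l is Atp5mg). Atp5d, the delta subunit of the rotor, lay at 106, 119.5 and 105 CPM in rBMSCs and at 228, 308 and 296 CPM in rEEOs. The groups did not overlap, and the log2 fold change was 1.33 ± 0.16 (edgeR, adjusted p = 0.00060), or 0.93 with the length trend removed (adjusted p = 0.00018). Atp5l, the g subunit of the membrane part, had 65.4, 79.4 and 71.3 CPM against 89.5, 110.1 and 143 CPM, a log2 fold change of 0.66 ± 0.20 (edgeR, adjusted p = 0.025). That call was lost without rBMSCs replicate 1, 2 or 3 or rEEOs replicate 3, with adjusted p between 0.052 and 0.094, and with the length trend removed (adjusted p = 0.94). Atp5d and Atp5e were the 2 of the 7 that remained higher once the trend was removed, beside 34.5% of all genes called higher. Atp5e lay near the threshold there (edgeR, adjusted p = 0.047), with adjusted p up to 0.16 when single libraries were also left out. With the trend kept, leaving out single libraries took the adjusted p of Atp5e up to 0.0505 and that of Atp5h up to 0.078.

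**Figure D2:**
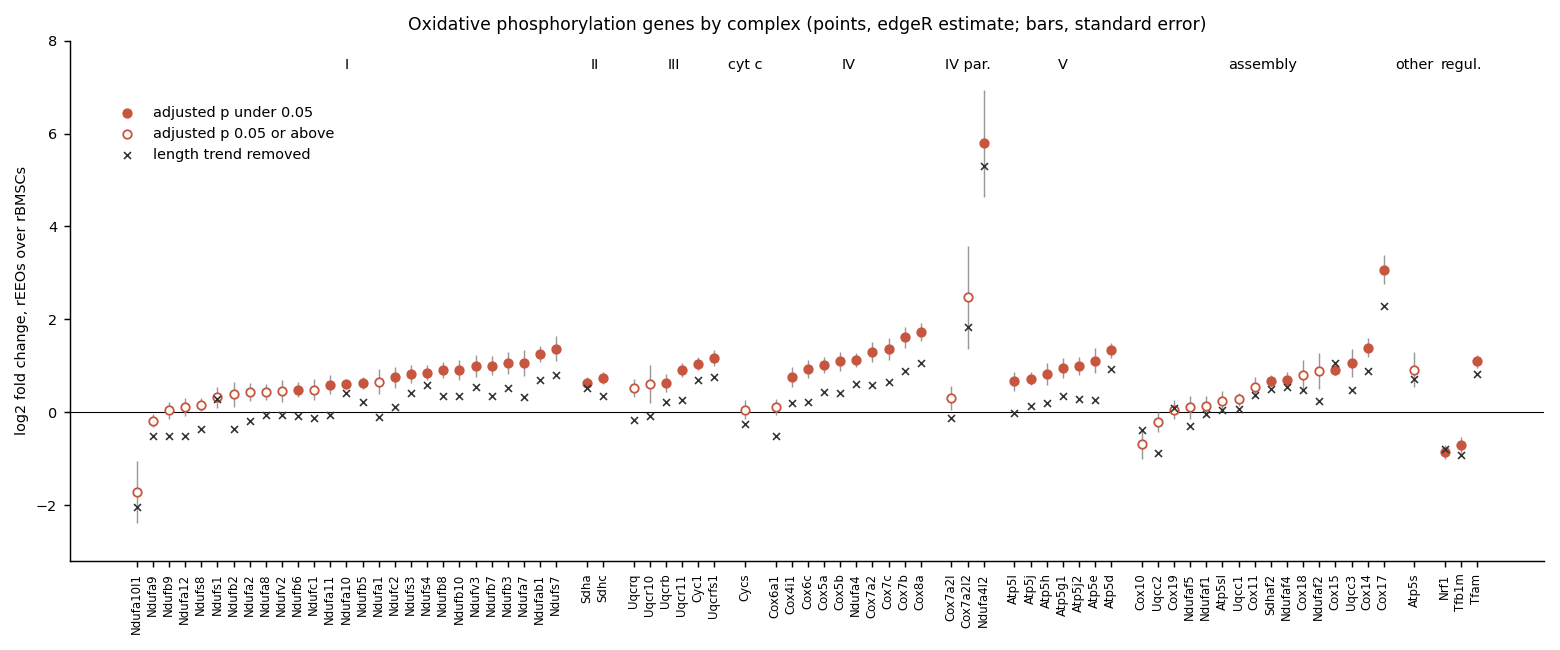
Log2 fold change of rEEOs over rBMSCs (y axis) for each of the 76 genes, grouped along the x axis by complex (I to V), cytochrome c, complex IV paralogs, assembly factors, Atp5s (other) and regulators. Filled circles passed an adjusted p of 0.05, open circles did not, bars are standard errors and crosses are the estimates with the length trend removed. Complex IV and V circles lie at 0.11 to 1.73, Ndufa4l2, Cox17 and Cox7a2l2 (open circle) stand above 2, and most crosses sit below their circles.

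Summed over the genes held, the level in TPM was higher in every rEEOs library than in every rBMSCs library for complexes I to V. TPM divides by length but does not remove the length trend between libraries, and no sum with that trend removed was made. The median log2 trend over the 76 genes was −0.30, −0.14 and −0.29 in rBMSCs replicates 1, 2 and 3. In rEEOs it was −0.11, 0.49 and 0.46. Together the 76 genes summed to 15362, 16192 and 15330 TPM in rBMSCs and to 22861, 21337 and 24639 TPM in rEEOs. Complex IV subunits had the largest sums, 5442 ± 148 TPM in rBMSCs and 8790 ± 748 TPM in rEEOs (mean ± SD, n = 3 each), followed by complex I subunits, with 4369 ± 180 and 5546 ± 448 TPM. Complex V subunits summed to 3225 ± 67.2 and 4829 ± 308 TPM, and complex III subunits to 1275 ± 67.7 and 1772 ± 131 TPM. With 3 libraries against 3, the smallest two-sided p that an exact permutation test can give is 0.1, so no test was made of these sums. The order of single genes shifted between the cell types. In rBMSCs Cox6a1 was the most abundant (1203 ± 89.8 TPM), followed by Cox4i1 (913 ± 22.9 TPM) and Atp5h (675 ± 22.9 TPM), and the ranges of these 3 did not overlap. In rEEOs Cox8a was the most abundant (1555 ± 182 TPM), followed by Cox4i1 (1245 ± 111 TPM) and Cox6a1 (1041 ± 61.2 TPM), where the ranges of Cox8a and Cox4i1 overlapped and those of Cox4i1 and Cox6a1 did not.

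**Figure D3:**
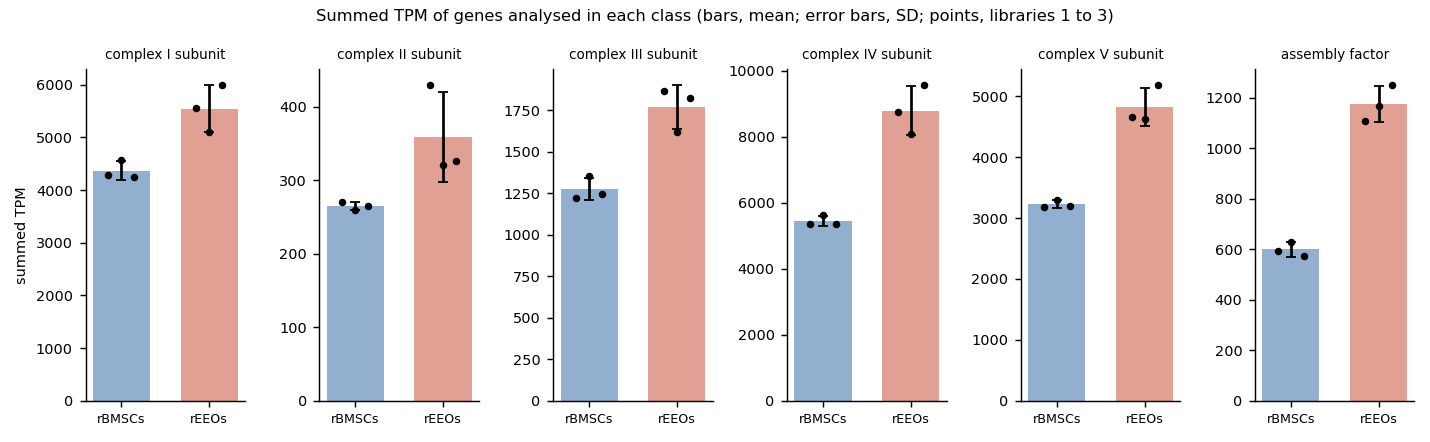
Summed TPM (y axes, each from 0) of the genes held for complexes I to V and the assembly factors in rBMSCs and rEEOs. Bars are means, error bars SD and points the 3 libraries of each cell type. The rEEOs points lie above the rBMSCs points in every panel, and the largest sums belong to complex IV, at 5442 TPM in rBMSCs and 8790 TPM in rEEOs. The length trend was not removed from these sums.

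Of the 16 assembly factors, which mature the complexes without being part of them, 6 rose, none fell and 10 did not pass, beside a background of 33.3% higher. Once the trend was removed, 6 were higher and 1 was lower, Uqcc2, a complex III assembly factor, which went from −0.21 (edgeR, adjusted p = 0.40) to −0.88 (adjusted p = 0.0025). Cox17, which brings copper to complex IV, was measured at 7.70, 8.65 and 8.38 CPM in rBMSCs and at 41.7, 84.8 and 81.5 CPM in rEEOs. Its lowest rEEOs library was far above the rBMSCs range, with a log2 fold change of 3.07 ± 0.31 (edgeR, adjusted p = 0.00025), or 2.29 with the length trend removed (adjusted p = 1.9e-05). Cox17 is one of the shortest transcripts of the group, and its TPM relative to the similarly short Cox6c was 13.9% to 16.0% in rBMSCs and 50.7% to 75.1% in rEEOs. Cox14, Uqcc3 (complex III assembly), Cox15 (heme a synthesis), Ndufaf4 (complex I assembly) and Sdhaf2 (flavin insertion into Sdha) rose by 0.67 to 1.39. Cox10, the other heme a enzyme and the longest transcript of the 76, had 23.5, 22.8 and 23.1 CPM in rBMSCs and 21.3, 9.25 and 12.4 CPM in rEEOs. All rEEOs libraries lay below the rBMSCs, but with replicate 1 close to them the log2 fold change of −0.69 ± 0.31 did not pass (edgeR, adjusted p = 0.095). Without rEEOs replicate 1 it was −1.07 (adjusted p = 0.0012), and with the length trend removed −0.38 (adjusted p = 0.20), or −0.65 to −0.19 when single libraries were also left out.

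The 3 regulators moved in opposite directions. Tfam, which packages and transcribes mitochondrial DNA, rose from 26.8, 27.3 and 24.1 CPM in rBMSCs to 50.3, 61.4 and 55.5 CPM in rEEOs. The log2 fold change was 1.10 ± 0.14 (edgeR, adjusted p = 0.00077), or 0.82 with the length trend removed (adjusted p = 0.00080). Nrf1, the transcription factor, fell from 54.6, 56.8 and 53.9 CPM to 35.8, 27.8 and 27.4 CPM, a log2 fold change of −0.86 ± 0.15 (edgeR, adjusted p = 0.0032), or −0.78 with the length trend removed (adjusted p = 0.0021). With library size as the only scaling it was −0.47 (adjusted p = 0.050). Tfb1m, which methylates mitochondrial ribosomal RNA, fell from 12.9, 12.8 and 12.9 CPM to 8.27, 7.24 and 8.26 CPM. Its log2 fold change was −0.70 ± 0.17 (edgeR, adjusted p = 0.012), or −0.93 with the length trend removed (adjusted p = 0.0051). Without rBMSCs replicate 1, 2 or 3 its adjusted p lay between 0.052 and 0.064, and with library size only it was −0.32 (adjusted p = 0.17). For all 3 regulators the rEEOs and rBMSCs libraries did not overlap in CPM. The same held for most genes tested, with rEEOs above in 36.9% and below in 35.9%.

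**Figure D4:**
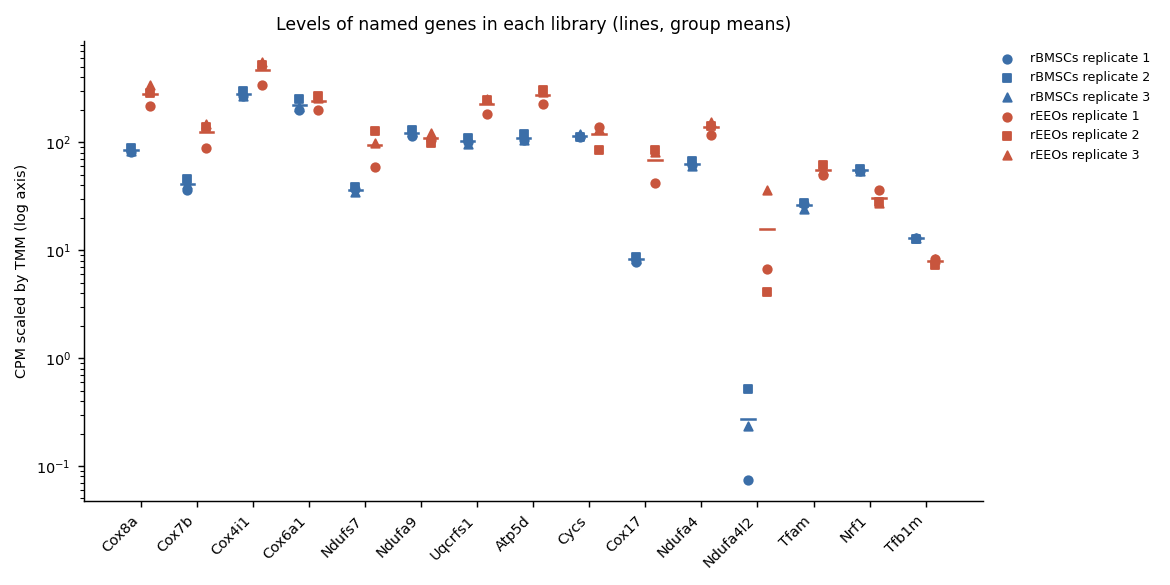
Level of 15 named genes in each library, in CPM scaled by TMM (log y axis), with rBMSCs in blue and rEEOs in red. Symbols mark replicates 1 to 3 and short lines the group means. Cox17 and Ndufa4l2 show the widest separation, Cox6a1, Cycs and Ndufa9 overlap, Nrf1 and Tfb1m are lower in rEEOs, and rEEOs replicate 1 is the lowest red point for Cox8a, Cox7b, Cox4i1 and Cox17.

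A promoter sequence was held for 65 of the 76 genes, covering 250 bases before and 50 after the start, and motifs were counted in those windows on both strands. The NRF1 letters occurred in 20 of the 65 (30.8%), beside 16.7% of the 8374 promoters of tested genes and 8.23% of all 27457. The ETS letters occurred in 17 of 65 (26.2%), beside 17.9% and 9.22%. The YY1 letters occurred in 12 of 65 (18.5%), beside 5.47% and 3.44%, in most cases within 50 bases of the start, and the ERR letters in none, beside 0.263% and 0.412%. The NRF1 letters were found 3 times in the Sdha window, and in those of Cycs, Atp5d and Nrf1 itself. The median log2 fold change was 0.65 for genes with the NRF1 letters and 0.88 for those without, 0.67 and 0.83 for the ETS letters, and 0.79 and 0.76 for the YY1 letters. The RNAs of 3 factors that bind such motifs passed the test as lower in rEEOs: Nrf1 as given above, Gabpa, the DNA-binding subunit of GABP and one of many ETS proteins, with a log2 fold change of −1.14 ± 0.20 (edgeR, adjusted p = 0.0027), and Yy1 with −0.44 ± 0.16 (edgeR, adjusted p = 0.048). With library size only Yy1 was −0.053 (adjusted p = 0.81). Esrra, a receptor of the ERR family, went the other way and passed as higher, as given below. The motif counts are matches of letters, and binding was not measured.

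Of 68 other genes of mitochondrial respiration tested, in 6 lists, 38 rose, 5 fell and 25 did not pass, with a median log2 fold change of 0.64, beside the background of 33.3% higher and 30.2% lower. With the length trend removed 33 were higher and 8 lower, beside 34.5% and 31.1%, and the median was 0.43. Among the coactivators and regulators 2 of 6 rose and 3 fell, or 2 were higher and 2 lower with the trend removed. Ppargc1a, the coactivator PGC-1alpha that drives mitochondrial gene programmes, had 0.15, 0 and 0 CPM in rBMSCs and 33.1, 9.86 and 21.4 CPM in rEEOs, and was at least 95.4-fold higher taking 3 counts per rBMSCs library as the floor. Esrra, a nuclear receptor partner of that coactivator, rose (0.99 ± 0.12, edgeR, adjusted p = 0.00054), whereas Gabpa, Pprc1 (−0.63, adjusted p = 0.022) and Yy1 fell. Pprc1 lost the call with the length trend removed (−0.18, adjusted p = 0.16), and both Pprc1 and Yy1 lost it when any single library other than rEEOs replicate 1 was left out, with adjusted p up to 0.084 and 0.15. Of 11 genes for the upkeep and expression of mitochondrial DNA 8 rose and 1, Mterf3, fell (−0.82, adjusted p = 0.0029), or 9 were higher and 1 lower with the trend removed. The accessory subunit of the mitochondrial DNA polymerase, Polg2, had 2.89, 3.89 and 2.79 CPM in rBMSCs and 9.17, 16.8 and 12.5 CPM in rEEOs (2.00 ± 0.31, edgeR, adjusted p = 0.0016), and the elongation factor Tefm rose by a log2 fold change of 1.71 (adjusted p = 0.0014).

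Of 19 further assembly factors 9 rose and none fell. For this list and those that follow, the background was 33.3% higher and 30.2% lower, or 34.5% and 31.1% with the length trend removed. Once the trend was removed 10 were higher and 2 lower, Tmem126a (adjusted p = 0.010) and Ttc19 (−0.66, adjusted p = 0.016). Higd2a, a complex IV assembly factor, rose from 19.4, 24.3 and 18.9 CPM to 68.7, 104.6 and 106.6 CPM (2.16 ± 0.22, edgeR, adjusted p = 0.00029). Surf1, another, went from 7.92, 1.69 and 1.09 CPM in rBMSCs, where replicate 1 was well above the rest, to 18.7, 39.1 and 38.0 CPM (3.16 ± 0.77, edgeR, adjusted p = 0.012), or 4.51 without that library. Its counts were not all whole, and with the length trend removed its call was lost without rBMSCs replicate 2 or rEEOs replicate 3 (adjusted p up to 0.064). Of 10 genes of coenzyme Q synthesis 7 rose and none fell (6 and none with the trend removed), with Adck3 at 2.85 ± 0.31 (edgeR, adjusted p = 0.00035) and Adck4 at 1.75 ± 0.38 (edgeR, adjusted p = 0.0070), both of the ADCK family that coenzyme Q synthesis depends on. Of 14 import and inner membrane genes 7 rose and none fell, among them Phb (prohibitin, 1.01 ± 0.14, edgeR, adjusted p = 0.0011) and Tomm22 (0.72 ± 0.15, edgeR, adjusted p = 0.0059). With the length trend removed, 3 of these 14 were higher and 1 lower, beside 34.5% and 31.1% of all genes tested.

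The genes for carriers, channels and uncoupling differed widely among themselves, with a median log2 fold change of 0.60, or 0.34 with the length trend removed. The phosphate carrier Slc25a3 did not pass (0.07 ± 0.13, edgeR, adjusted p = 0.69), nor with the trend removed (−0.23, adjusted p = 0.14). Of 8 tested, 5 rose and 1 fell, or 3 were higher and 2 lower with the trend removed, where Vdac3, an outer membrane channel, was added to the lower ones (−0.65, adjusted p = 0.0074). Ckmt1b, a mitochondrial creatine kinase, had 0 counts in all rBMSCs libraries and 265, 225 and 342 CPM in rEEOs, at least 1233-fold higher against a floor of 3 counts per rBMSCs library. The uncoupling protein gene Ucp2 rose from 7.10, 7.99 and 9.62 CPM to 319, 233 and 351 CPM (5.19 ± 0.24, edgeR, adjusted p = 1.5e-05). Slc25a4, an ATP/ADP carrier singled out after its values were seen, fell from 590, 620 and 575 CPM to 199, 129.8 and 221 CPM (−1.70 ± 0.22, edgeR, adjusted p = 0.00081), while the sister carrier Slc25a5 rose (0.67 ± 0.18, edgeR, adjusted p = 0.017). The Slc25a5 call was lost with the length trend removed (0.34, adjusted p = 0.21) and without rBMSCs replicate 1, 2 or 3 (adjusted p up to 0.071). In TPM, Slc25a4 stood at 253% to 268% of Slc25a5 in rBMSCs and at 46.7% to 53.6% in rEEOs, so the more abundant carrier differed between the cell types. The 2 genes lie close in relative length (0.45 and 0.41).

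**Figure D5:**
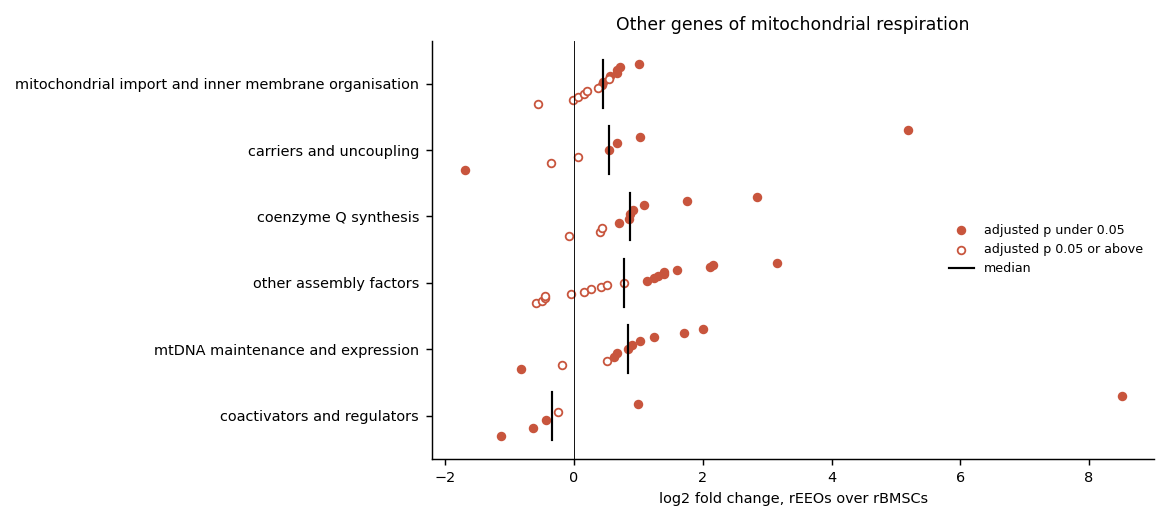
Log2 fold change of rEEOs over rBMSCs (x axis) for the other genes of mitochondrial respiration tested, in 6 lists (y axis), leaving out Ckmt1b, which had 0 counts in rBMSCs. Filled circles passed an adjusted p of 0.05, open circles did not, and vertical lines are list medians of the genes drawn. Medians lie above 0 in the lists other than the regulators, Ppargc1a (8.50, against a single rBMSCs library with counts) and Ucp2 (5.19) lie farthest above 0, and Slc25a4 (−1.70) farthest below.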

How the data were processed

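Libraries from total RNA, 3 of each cell type, were sequenced as single-end reads. According to the methods and the submitters' processing notes, the authors trimmed reads with Trim Galore, aligned them with Bowtie2 2.2.5 (Rnor_6.0 is the build named in the notes), estimated expression with RSEM and tested genes with DESeq2. The deposited table holds expected counts, TPM and FPKM per gene and library, which the authors computed. Strand use in counting is not given in the sources used here. Columns of group means were not used. The copy analysed here ended part-way through its last line.

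After rounding of the expected counts, the 10607 genes that reached 10 counts in 3 or more libraries entered edgeR 4.0.16 (TMM, glmQLFit, glmQLFTest) in R 4.3.3, with Benjamini-Hochberg adjustment over all of them. All 76 genes passed that filter. The SE is the size of the log2 fold change divided by the square root of F. CPM use TMM library sizes, whose floor of 3 counts corresponds to 0.181 to 0.262 CPM and covers counting error only. Relative effective length came from the ratio of counts to FPKM, a linear ratio. Its trend in each library was fitted over all genes (lowess, span 0.3) and entered edgeR as an offset. The procedure was tested on simulated data with far fewer changed genes than were called here and a straight length trend. Those runs do not show how the trend removal performed on these libraries. Of the 76 genes, 9 had counts that were not whole, which marks reads shared with other genes. By gene ID, 75 of 76 matched RefSeq (GRCr8, names and promoters only).

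Genes are named by this rule: isoform and paralog groups of complex IV, electron carriers, regulators and succinate dehydrogenase subunits, in each complex and the assembly factors the largest and smallest log2 fold change above 20 TPM (5 TPM for assembly factors), all past the threshold of the study, and at most 2 genes of each other list. Ndufa10 and its copy, Slc25a3, Slc25a4, Slc25a5, Esrra, Pprc1, Yy1, Mterf3, Tmem126a, Ttc19 and Vdac3, and the further subunits and assembly factors given by value, were named after their values were seen, as were the motifs chosen. The 76 genes and all lists were chosen with earlier results of these data known. Alternatives were DESeq2 1.42.0, other scalings and count filters, limma 3.58.1 on log2(TPM + 1) or log2(TPM + 0.1), removal of the length trend, a replicate block and leaving out each library. Combining the removal of the length trend with leaving out a library was chosen after seeing the data.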

Additional observations from a re-analysis of the deposited data

How the results depend on the processing

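The median log2 fold change of the 76 genes stayed above 0 in every alternative run, between 0.25 and 1.12. The medians of the 5 complexes also stayed above 0, but that of complex I came close to it. With the length trend removed and without rEEOs replicate 1, it was 0.016, under the 0.045 of all genes. The median of the 76 was 1.12 with library size only, 0.45 in limma on log2(TPM + 1) and on log2(TPM + 0.1), 0.27 with the length trend removed, 0.26 with the trend removed and the replicate block, and 0.25 to 0.91 without single libraries, with or without the trend. Over all genes the median was 0.08 with TMM, 0.46 with library size only and −0.22 in TPM, and the 76 genes exceeded it by 0.66, 0.66 and 0.67, but by 0.53 with at least 1 count in any library and by 0.23 with the length trend removed. Higher calls numbered 51 in DESeq2, 62 with library size only and 39 in limma, and 34 to 58 without single libraries (58 without rEEOs replicate 1). With the length trend removed as well they were 18 to 37, lowest without rBMSCs replicate 1. Lower calls were 0 with library size only, 4 in either limma fit, 10 with the length trend removed, 1 to 3 without single libraries and 4 to 13 with both. With an absolute log2 fold change above 1, calls were 20 higher and 0 lower. At the threshold of the study 3 genes were higher with library size only, in either limma fit and without rBMSCs replicate 2. With at least 50 counts in 3 libraries 1 gene remained higher at that threshold, and Ndufa4l2 was not tested. In limma on log2(TPM + 0.1) and with the length trend removed, 1 gene was lower at that threshold. Without single libraries 0 to 1 genes were lower there. Among the other genes of respiration, lower calls were 3 with library size only and 8 in either limma fit or with the length trend removed, 3 to 9 without single libraries and up to 14 with both. Higher calls were 26 to 46 without single libraries and 24 to 38 with both. The summed level gave a log2 ratio of 0.55 in TPM, 0.76 in CPM and 0.85 in TPM rescaled by TMM, none of them with the length trend removed.

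Among the genes named by the rule, signs turned for Atp5l, which had passed the threshold, and for 5 that had not. With the length trend removed, Atp5l was −0.013, Cox6a1 −0.51, Cox7a2l −0.12, Cycs −0.26 and Uqcrq −0.16. Without single libraries, with or without the trend, they ran from −0.12 to 0.84, −0.62 to 0.26, −0.26 to 0.57, −0.55 to 0.28 and −0.25 to 0.71. In limma on log2(TPM + 1) and on log2(TPM + 0.1), Cox6a1 was −0.21 in both, Cox7a2l −0.011 in both and Cycs −0.24 in both. Ndufa9 was 0.20 with library size only. Of the other genes given by value, Ndufs8 went from 0.16 to −0.35, and Ndufv2 from 0.46 to −0.052, with the length trend removed, and the lower calls of Ndufb9, Ndufa12 and Ndufb2 there (−0.52, −0.50 and −0.35) also followed values above 0. The cause was not tested.

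The labels give both cell types replicates 1 to 3, but the numbers did not pair the samples: deviations of same-numbered samples from their group means correlated at 0.14, 0.16 and −0.13. With the replicate block 44 genes were higher and 2 lower, and 1 was lower at the threshold of the study. With the replicate block and the length trend removed 20 were higher and 7 lower, 1 was lower at that threshold, 8 other genes of respiration were lower, the median was 0.26, and Atp5l was −0.030, Cox6a1 −0.51, Cox7a2l −0.14, Cycs −0.33 and Uqcrq −0.16. Under the block without the trend removed, Tfb1m had an adjusted p of 0.056 and Uqcrq 0.046.

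Libraries of 10457958 to 15421501 counts left Cox4i2, Sdhaf3 and Cox7a1 near the floor, where a difference was not detectable at this depth. Cox7a2l2 was also low, with at most 26.3 counts in a library. Its rEEOs libraries all lay above the rBMSCs in CPM, but it did not pass (edgeR, adjusted p = 0.092).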
